A study of Mus musculus with 18 samples.

Results

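The 10 genes described here are subject to genomic imprinting and act on growth, and were followed through 15 mouse mammary tumors and 3 normal mammary glands: H19, Igf2, Dlk1, Meg3, Peg3, Mest, Plagl1, Cdkn1c, Grb10 and Ndn. They were taken by gene symbol from the 55450 genes counted, each symbol matched 1 row, and all 10 members passed the filter on low counts. The study asked how loss of Brca1 and inhibition of the Rb family shape tumors that lack Trp53, and RNA was sequenced from 5 tumors of each of 3 genotypes, 1 library per mouse. B1/P/Rbf tumors came from Brca1fl/fl/Trp53fl/fl/TgK18GT121Tg/+ females, B1/P tumors from Brca1fl/fl/Trp53fl/fl females, P/Rbf tumors from Trp53fl/fl/TgK18GT121Tg/+ females, and normal glands from wild type females. All were on the C57Bl/6 J background. Tumors were induced by an adenovirus with Cre under a viral promoter that was injected through the nipple of adult mice, so recombination was limited to the cells the virus reached, and every tumor group shares the Trp53 deletion and the virus. The transgene TgK18GT121 drives T121, an N-terminal piece of SV40 large T antigen that inactivates pRb, p107 and p130, from the keratin 18 promoter in epithelial cells. The labels do not say that the normal glands received virus, and no group carries the transgene or the Brca1 deletion alone.

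An imprinted gene is read from 1 parental copy. Imprinted genes lie in clusters controlled by DNA methylation laid down in the egg or the sperm. Several paternally read genes favour fetal growth, among them the growth factor gene Igf2, while several maternally read genes restrain it, among them Cdkn1c and Grb10. In the mouse embryo many of them belong to a network of genes that are read together while tissues grow and are turned down after birth, and altered imprinting, above all of Igf2 and H19, is known from many tumors. The counts cannot tell the parental copies apart, since the mice are inbred.

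Total expected counts per library ranged from 27661173 to 37794889. Trp53 was at 6.75 to 24.3 CPM (read counts scaled per megaread with TMM factors) in the tumors and at 54.4 to 71.8 CPM in the glands, and Brca1 was at 8.13 to 27.9 CPM in B1/P tumors, 21.1 to 45.0 CPM in B1/P/Rbf tumors and 44.9 to 116 CPM in P/Rbf tumors. The 45.0 CPM belong to B1/P/Rbf tumor 3, just above the lowest P/Rbf tumor, and the study's own control of recombination describes the loss of Brca1 in that tumor as partial, so results of its genotype include a tumor that may keep some Brca1. Brca1 in the glands, at 4.61 to 5.99 CPM, was below every tumor, and exons outside the deleted parts are still counted, so the level of Brca1 does not check the genotypes against the glands. Summed levels of 8 epithelial markers were 908 to 2770 CPM in B1/P tumors, below every T121 tumor, with 2910 to 5790 CPM in the B1/P/Rbf and 4660 to 9290 CPM in the P/Rbf genotype, and were 1580 to 2170 CPM in the glands. The glands also held 25600 to 51000 CPM of 8 skeletal muscle markers and 21600 to 27300 CPM of 10 adipocyte markers, against 2.04 to 686 and 15.7 to 282 CPM in the tumors. No marker of these cell types was at 0 in every sample of a group, but 5 of the 8 muscle markers in B1/P/Rbf tumors and 7 of 8 in P/Rbf tumors had a mean below 1 CPM, as had 1 of the 10 adipocyte markers in the first and 5 in the second. The sum of 7 Schwann cell markers was 183 to 651 CPM in B1/P tumors and 10.2 to 83.3 CPM in both T121 genotypes, but this sum was mostly Sox10, at 164 to 612 CPM in B1/P tumors and at most 2.73 CPM in the other tumors. Prx and Ncmap overlapped between the genotypes. Their 10 fibroblast markers summed to 3200 to 13700 CPM, against 1030 to 5280 CPM in B1/P/Rbf and 1080 to 4440 CPM in P/Rbf tumors. Their 6 basal or myoepithelial markers summed to 340 to 2170 CPM, against 48.9 to 334 and 72.8 to 1440 CPM. Their 8 mural markers, of vessel wall and other contractile cells, summed to 487 to 976 CPM, against 197 to 646 CPM in the B1/P/Rbf genotype and, without overlap, 202 to 432 CPM in P/Rbf tumors. Their 6 preadipocyte markers summed to 85.6 to 301 CPM, against 34.7 to 192 and 20.0 to 149 CPM. In the glands, 8 lymphocyte markers summed to 581 to 833 CPM, against 17.0 to 140 CPM in the tumors. The mural markers summed to 1260 to 1960 CPM in the glands, also above every tumor.

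The imprinted genes differed widely between tumors of 1 genotype. Within the genotypes their levels had a median SD of 1.27 on the log2 scale, against 0.639 over all 19186 genes tested. Igf2 had an SD of 2.87, which exceeds that of 99.6% of the genes tested, Cdkn1c one of 2.43 (98.6%) and H19 one of 2.27 (98.0%). The other 7 members had SDs of 1.09 to 1.47. Among tumors, Igf2 spanned 0.56 to 3017 CPM, Cdkn1c 0.22 to 80.6 CPM and H19 14.4 to 3796 CPM. Per kilobase of exon, H19 had the highest mean level of the 10 in every group, from 94.6 CPM per kilobase in B1/P tumors to 1022 in B1/P/Rbf tumors. For the B1/P genotype this rested on tumor 4: without it the H19 mean was 10.2 CPM per kilobase, below Mest (23.8), Igf2 (11.3) and Peg3 (10.6), and H19 was the highest member in 1 of the 5 B1/P tumors, against 5 of 5 B1/P/Rbf tumors, 4 of 5 P/Rbf tumors and 3 of 3 glands. Dlk1 had the lowest in every group, at 0.0814 to 0.229 CPM per kilobase. Between them the order of the means changed: Igf2 was the second in both T121 genotypes, the third in B1/P tumors and the seventh in the glands, where Peg3 was the second. The third place in B1/P tumors rested on tumors 1 and 4, since the median of Igf2 there was 0.457 CPM per kilobase, the ninth of 10.

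The groups were set against each other in 6 comparisons by edgeR's quasi-likelihood test, and a gene was called when its p, adjusted after Benjamini and Hochberg over all genes tested, was at most 0.05. P/Rbf tumors had lower Peg3, Mest, Plagl1 and Ndn than B1/P tumors. That is 4 of 10 members called, all lower, where 19.2% of all genes were called, 8.43% higher and 10.8% lower. Peg3 and Mest did not overlap between these groups, as 8.86% of all genes did not. Against B1/P tumors, the B1/P/Rbf genotype had lower Ndn, which makes 1 of 10 members, where 16.7% of all genes were called, 7.36% higher and 9.29% lower. No member was free of overlap there, against 10.5% of all genes. The median log2 fold change of the 10 members was -1.21 in the first of these comparisons and -1.06 in the second, against -0.0514 and -0.0616 over all genes. Between the 2 genotypes with T121 edgeR called 0 members, where it called 0.281% of all genes, 0.219% upward and 0.0625% downward in the B1/P/Rbf genotype. At an unadjusted p under 0.05 there were 4 members, Igf2, Peg3, Mest and Grb10, where 16.1% of all genes were. DESeq2 called 3 of them (Peg3, Mest and Grb10) and 5.29% of all genes, limma-voom called 0 members and 0.136% of all genes, and 0 members were free of overlap, against 3.02% of all genes. Set against the glands, 5 members were called in B1/P/Rbf tumors, 2 higher and 3 lower, where 37.0% of all genes passed, 17.1% upward and 20.0% downward. In B1/P tumors 1 was higher and 1 lower, where 33.8% of all genes were called, 16.8% higher and 16.9% lower. In P/Rbf tumors 3 were lower, where 37.7% were called, 17.4% higher and 20.3% lower. Members without overlap with the glands numbered 6, 3 and 3 in that order, where 50.5%, 41.4% and 46.5% of all genes had none. In bulk tissue, fewer cells of a type and less RNA per cell cannot be told apart in any of these values. Comparisons with B1/P tumors share the B1/P samples, and those with the glands share the glands.

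**Figure D1:**
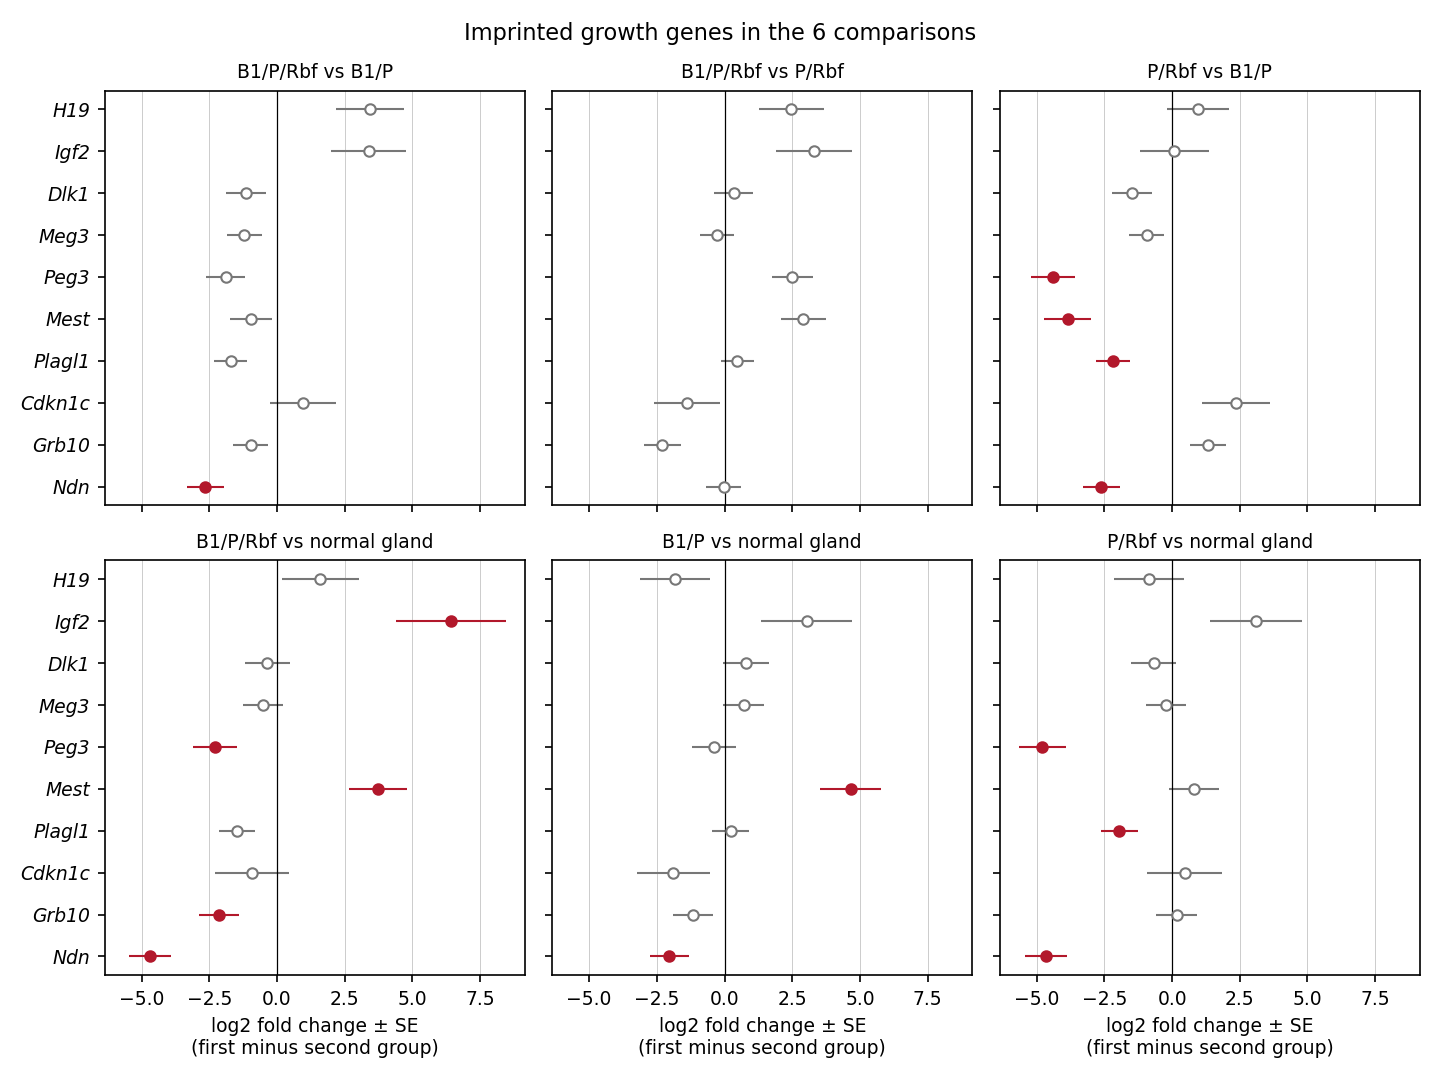
Log2 fold change (x axis, first group minus second) with its SE for the 10 imprinted genes in the 6 comparisons, from edgeR. Filled red points passed an adjusted p of 0.05; Peg3 at -4.40 and Mest at -3.85 in P/Rbf against B1/P tumors are the largest called changes between tumor groups.

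H19 is a long noncoding RNA read from the maternal copy (lincRNA, chr7:142575529-142578143, minus strand, GRCm38), and Igf2 encodes insulin-like growth factor 2, a fetal mitogen read from the paternal copy (chr7:142650766-142666816, minus strand). Both share 1 control region and a set of enhancers. Each also carries a microRNA gene in its transcript, and so does Mest; Meg3 holds others, which are not shown. The mature sequences in the RefSeq table (GRCm38.p6) are shown for these 3 hosts, to give the small RNAs that their transcripts carry, with the seed (bases 2 to 8) in capitals. miR-675 lies at chr7:142577078-142577133 and miR-483 at chr7:142654932-142654989, both on the minus strand, and miR-335 at chr6:30741314-30741375 on the plus strand.
mmu-miR-675-5p: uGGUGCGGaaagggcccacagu
mmu-miR-675-3p: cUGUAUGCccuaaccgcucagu
mmu-miR-483-5p: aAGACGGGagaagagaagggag
mmu-miR-483-3p: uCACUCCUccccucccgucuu
mmu-miR-335-5p: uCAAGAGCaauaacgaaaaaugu
mmu-miR-335-3p: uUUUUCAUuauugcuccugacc
The 6 seeds all differ from each other. The rows of these microRNA genes had a highest count of 0 in the 18 libraries, which were made from mRNA and do not sample mature microRNAs, so the host levels below say nothing of the microRNAs.

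H19 was high in 4 of 5 B1/P/Rbf tumors and low in 4 of 5 B1/P tumors. In B1/P/Rbf tumors 1 to 5 it measured 193, 3493, 3796, 3312 and 1781 CPM. In B1/P tumors it measured 21.1, 20.1, 36.3, 1064 and 22.3 CPM. Tumor 1 of the first group and tumor 4 of the second each stood far from the other 4, so the groups overlapped through these tumors. P/Rbf tumors gave 751, 167, 14.4, 228 and 1115 CPM, and the 3 glands 1191, 563 and 734 CPM, so each T121 genotype overlapped with the glands. The mean was 2515 ± 1514 CPM (SD, n = 5) in B1/P/Rbf tumors against 232.8 ± 464.7 CPM in B1/P tumors (n = 5), a log2 fold change of 3.43 ± 1.26 (SE) that was not called (edgeR adjusted p = 0.0697). Without B1/P tumor 4 the log2 fold change was 6.65 and was called (edgeR adjusted p = 0.00192), and DESeq2 and limma-voom called it with all tumors (adjusted p = 0.00685 and 0.00827). With a term for 2 sets of libraries, numbers 1 to 8 and 9 to 18, edgeR called H19 higher in the B1/P/Rbf genotype than in B1/P (log2 fold change 6.60, adjusted p = 0.0115). The same fit called it higher than in glands (5.99, adjusted p = 0.0322), the only 1 of 8 alternatives to do so. Leaving out each sample gave 1.4 to 1.99 against glands, never called (edgeR adjusted p of 0.31 to 0.553). Only B1/P tumors bridge the 2 sets, and the outlying B1/P tumor 4 is in the second. Without that tumor, H19 was also called higher in P/Rbf than in B1/P tumors (log2 fold change 4.18, edgeR adjusted p = 0.0107; 0.966 and 0.583 with it) and lower in B1/P tumors than in glands (-5.05, adjusted p = 0.00228; -1.83 and 0.287 with it). B1/P tumor 4 had the highest sum of 7 cartilage markers, 1120 CPM against 24.1 to 592 CPM in the other tumors, but 943 CPM of it was Col9a1 alone, while Col2a1, a defining collagen of cartilage, was at 24.8 CPM there and at 386 CPM in B1/P tumor 1, whose H19 was 21.1 CPM. The part of Col9a1-expressing cells in the H19 level was not tested.

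Igf2 had its highest mean in B1/P/Rbf tumors and was below 3 CPM in 3 B1/P tumors. The B1/P/Rbf genotype gave, in tumors 1 to 5, 430, 3017, 2080, 344 and 1271 CPM. B1/P tumors gave 253, 0.56, 2.54, 427 and 2.62 CPM, and P/Rbf tumors 447, 7.98, 102, 55.5 and 110 CPM. The 3 glands were close together at 19.7, 12.7 and 18.1 CPM, below all 5 B1/P/Rbf tumors and above B1/P tumors 2, 3 and 5. Igf2 was called higher in B1/P/Rbf tumors than in glands, by 84.8-fold (log2 fold change 6.41 ± 2.03 SE, edgeR adjusted p = 0.0201), while the fitted levels of B1/P and P/Rbf tumors, 8.15-fold and 8.59-fold above the glands, were not called (adjusted p = 0.179 and 0.161). The P/Rbf difference was called by DESeq2 (adjusted p = 0.0455) and by edgeR with these groups alone (0.0496). Leaving out each sample gave log2 fold changes of 1.94 to 3.35 for B1/P and 2.13 to 3.41 for P/Rbf tumors, never called. By limma-voom that of B1/P tumors was -0.249. The call in B1/P/Rbf tumors was lost without gland 1, 2 or 3, with an adjusted p of 0.0679, 0.0734 and 0.0731. Between genotypes, the log2 fold change of Igf2 in B1/P/Rbf tumors was 3.38 ± 1.39 against B1/P and 3.3 ± 1.39 against P/Rbf tumors, neither called (edgeR adjusted p = 0.106 and 0.251). Leaving out each sample gave 2.91 to 4.46 against B1/P and 2.83 to 4.36 against P/Rbf tumors, never called. DESeq2 and limma-voom called the difference from B1/P tumors, with log2 fold changes of 3.38 and 6.59 (adjusted p = 0.0176 and 0.00644). The glands' high muscle, adipocyte, lymphocyte and mural sums run beside every comparison with them, and the part of those cells was not tested.

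**Figure D2:**
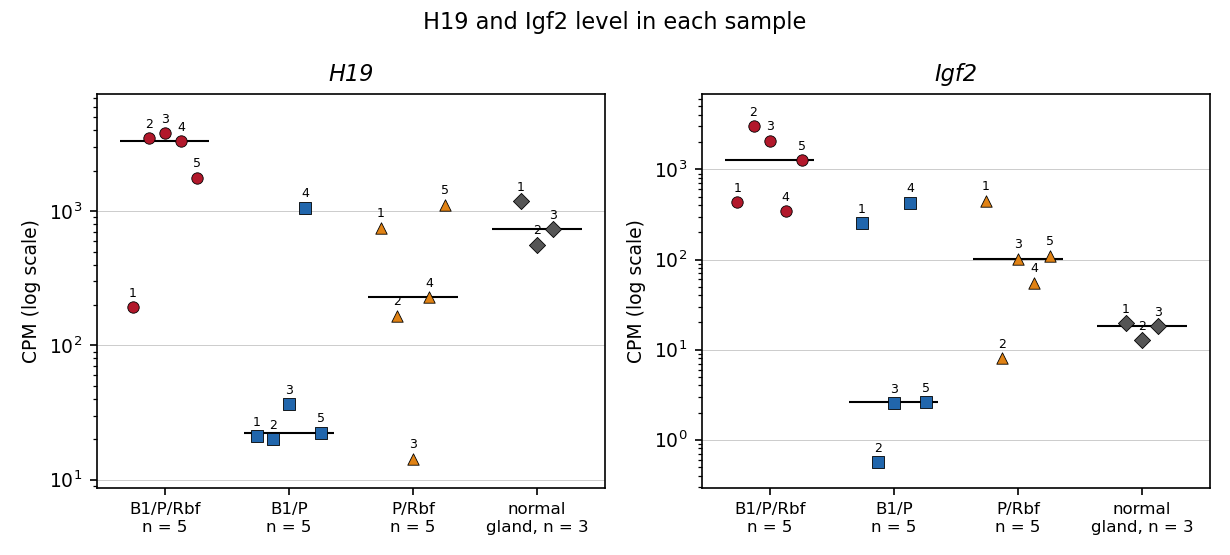
H19 (left) and Igf2 (right) in each of the 18 samples, in CPM on a log axis; numbers are replicates and lines are group medians. H19 in B1/P tumor 4, at 1064 CPM, stands apart from the other B1/P tumors, at 20.1 to 36.3 CPM, and 3 B1/P tumors have Igf2 below 3 CPM.

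Reads of Igf2 can be shared with Gm49394, a gene model that covers nearly all of it on the same strand (chr7:142650769-142669942) and had no counts in the glands. Gm49394 was at 125 and 164 CPM in P/Rbf tumors 3 and 5, above Igf2 itself at 102 and 110 CPM, and at 139 CPM in B1/P/Rbf tumor 4, whose Igf2 was the lowest of that genotype. With both genes summed, the log2 fold change of B1/P/Rbf tumors was 6.45 against glands (edgeR adjusted p = 0.0207), 3.23 against B1/P tumors (0.122) and 2.67 against P/Rbf tumors (0.351), so no call changed. The sum also raises the level of P/Rbf tumors against the glands, since Gm49394 had a mean of 86.0 CPM there beside 144.7 CPM of Igf2. Over all alternatives, the log2 fold change of Igf2 in P/Rbf tumors against glands was 2.36 to 3.78. The antisense gene Igf2os (chr7:142659693-142670356, plus strand) was at 6.65 to 30.8 CPM in B1/P/Rbf tumors and at most 0.0391 CPM in glands. Over the 15 tumors it was the gene most like Igf2, with a Pearson r of 0.939 on log2 CPM among 15363 genes compared. Whether the counting used the strand is not given in the sources used here, so reads of Igf2 and Igf2os cannot be told apart with certainty.

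Over the 15 tumors the levels of H19 and Igf2 ran together (r = 0.74, permutation p = 0.00196; rho = 0.761, permutation p = 0.00159). Over the 2 gene pairs tested, the Benjamini-Hochberg values were 0.00392 and 0.00318. Without the 2 tumors farthest from the median of H19, r was 0.778. Within genotypes the relation did not pass a permutation test (r = 0.473, p = 0.107; rho = 0.525, p = 0.057). P/Rbf tumor 3 and B1/P tumor 1 departed from it, with H19 of 14.4 and 21.1 CPM and Igf2 of 102 and 253 CPM. H19 ranked 70th among 15363 genes by likeness to Igf2.

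**Figure D3:**
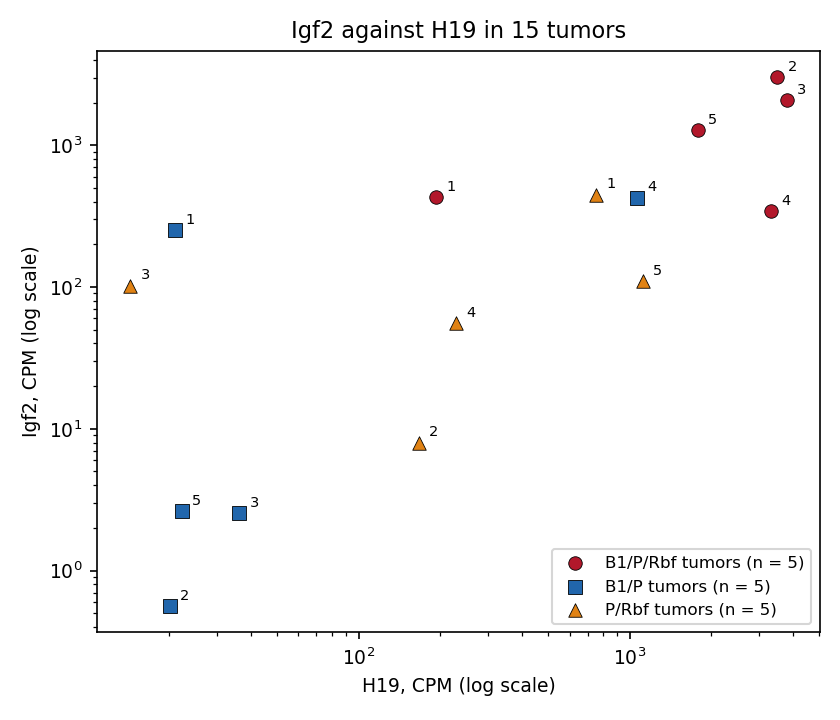
Igf2 against H19 in the 15 tumors, both in CPM on log axes; colours and shapes give the genotype and numbers the replicate. B1/P/Rbf tumors lie at the upper right, except tumor 1 with H19 at 193 CPM, and B1/P tumors 2, 3 and 5 lie at the lower left.

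The genes that carry the Igf2 signal were read from a list of 24 genes, of which 23 were tested: Igf1, receptors, binding proteins and the proteases that cut them, adaptors, mRNA-binding proteins and Hmga2. In B1/P/Rbf against B1/P tumors 1 was called higher and 6 lower (4.35% and 26.1% of the list, against 7.36% and 9.29% of all genes), with a list median log2 fold change of -0.924 against -0.0616 over all genes. Igf1r, the receptor through which Igf2 signals, was at 3.89 to 14.1 CPM in B1/P/Rbf tumors and 42.3 to 196 CPM in B1/P tumors (log2 fold change -3.69 ± 1.08, edgeR adjusted p = 0.0271). P/Rbf tumors were split for Igf1r, with 43.1, 1049, 7.59, 497 and 7.05 CPM in tumors 1 to 5. The binding proteins Igfbp2 and Igfbp3, which hold IGFs outside the cell, fell by 3.91 and 1.69 on the log2 scale (adjusted p = 0.00331 and 0.00908), and Pappa, a protease that frees IGFs from such proteins, by 2.68 (0.0440). Igf2bp3, which binds Igf2 mRNA, and Hmga2, a chromatin protein of fetal tissues, fell by 7.43 and 4.38 (edgeR adjusted p = 0.00687 and 0.0491). Both, like Pappa, overlapped between these genotypes. Igf2bp3 was at 0.118 to 46.1 CPM in B1/P tumors (median 2.55) and at most 0.243 CPM in B1/P/Rbf tumors. Hmga2 was at 0.930 to 94.4 CPM (median 1.80) in B1/P and 0.0851 to 4.85 CPM in B1/P/Rbf tumors. Grb7, an adaptor of the Grb10 family, was 1.45 higher (adjusted p = 0.00185).

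In P/Rbf against B1/P tumors 3 of those 23 genes were called higher and 5 lower (13.0% and 21.7%, against 8.43% and 10.8% of all genes). Grb7 (1.37), Grb14 (2.09) and Igf2bp1 (5.11) were higher on the log2 scale. Igfbp2, Igfbp5, Igfbp6, the adaptor Irs1 and Igf2bp3 were lower, from -1.57 for Irs1 to -7.51 for Igf2bp3. The 5 lower genes, Grb14 and Igf2bp1 all overlapped between these genotypes. Igf2bp1 was at 0.238 to 59.5 CPM in P/Rbf tumors and at most 1.24 CPM in B1/P tumors. Igf2r, which clears Igf2 and is itself imprinted, was higher than in glands in all 3 genotypes, by 0.985 to 1.24 on the log2 scale (edgeR adjusted p of 0.00757 to 0.0261). Against the glands, calls among the 23 were 3 higher with 5 lower for B1/P/Rbf tumors, 5 and 2 in B1/P tumors and 6 and 5 in P/Rbf tumors. These are 34.8%, 30.4% and 47.8% of the list, where 37.0%, 33.8% and 37.7% of all genes were called. The glands' adipocyte, muscle, lymphocyte and mural sums apply to these values too. The epithelial, fibroblast, basal and mural sums and Sox10 apply to those between tumor genotypes. The part of either was not tested. Igf1, the fellow ligand, fell by 3.59 to 4.25 on the log2 scale in the tumors.

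Peg3, Mest, Plagl1 and Ndn, all read from the paternal copy, were the members that fell in P/Rbf against B1/P tumors. Peg3 (chr7:6703892-6730431, minus strand) encodes a zinc finger protein, Mest (chr6:30723547-30748465, plus strand) a protein of the hydrolase fold that marks growing mesenchyme, Plagl1 (chr10:13060504-13131694, plus strand) a zinc finger factor that regulates other imprinted genes and arrests the cell cycle, and Ndn (chr7:62346569-62350262, plus strand) necdin, a binding partner of E2F1 and p53. The sequences before the starts of Peg3, Mest and Plagl1 are given, since these genes fell together in P/Rbf against B1/P tumors, from the RefSeq promoter table (GRCm38.p6), without the bases that any GENCODE exon covers and with CpG sites in capitals. They lie at chr7:6730432-6730577 (minus strand), chr6:30737800-30738049 (plus) and chr10:13090582-13090690 (plus). The Mest and Plagl1 stretches lie inside the gene bounds given above, before a RefSeq start downstream of the first GENCODE one. That of Mest is 1 of 3 such windows. The whole Plagl1 window runs on to chr10:13090831 and holds 19 CpG sites, so the bases next to its start are not shown. The window of Ndn (chr7:62348027-62348276) lies within an exon of Ndn, so none of it is shown.
Peg3: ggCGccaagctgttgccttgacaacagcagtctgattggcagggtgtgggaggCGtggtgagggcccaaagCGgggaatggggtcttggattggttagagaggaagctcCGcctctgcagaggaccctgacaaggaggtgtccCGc
Mest: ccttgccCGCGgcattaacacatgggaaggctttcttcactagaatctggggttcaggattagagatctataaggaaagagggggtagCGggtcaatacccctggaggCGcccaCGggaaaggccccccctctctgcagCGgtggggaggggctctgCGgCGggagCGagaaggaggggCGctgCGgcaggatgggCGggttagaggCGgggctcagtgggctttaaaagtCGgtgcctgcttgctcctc
Plagl1: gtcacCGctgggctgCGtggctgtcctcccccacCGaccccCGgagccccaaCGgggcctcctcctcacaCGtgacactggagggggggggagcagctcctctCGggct
The Peg3 stretch is the whole gap of 146 bases between the first exons of Peg3 and of Usp29, which is read the other way, and it holds 5 CpG sites. The Mest stretch of 250 bases holds 14 and the Plagl1 stretch of 109 bases 7.

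The table gave 15 windows of 250 bases before a start for 8 members, with none for H19 and Cdkn1c. They were searched on both strands. Neither E2F form, TTTCCCGC or TTTGGCGC, was found in them, and these letters occur in 0.895% and 0.417% of all 32851 windows. The palindrome GGGGCCCC, to which Plagl1 protein is known to bind, was found once, in the Peg3 window outside the stretch shown, and occurs in 0.889% of windows. GCCATC, a core of YY1 sites, was found in the Plagl1 window and occurs in 10.7% of windows. TATAAA was found in 1 of the Meg3 windows (12.4% of windows), on both strands in 1 overlapping run. Absence of a match says only that these letters are absent from these windows.

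Peg3 was lower in every P/Rbf tumor than in every B1/P tumor. P/Rbf tumors 1 to 5 gave 1.84, 7.54, 15.5, 9.82 and 0.92 CPM, and B1/P tumors 207, 60.9, 276, 189 and 22.0 CPM. The difference was 21.2-fold (log2 fold change -4.40 ± 0.815 SE, edgeR adjusted p = 0.0022), and the call held without any 1 tumor, with an adjusted p of 0.00146 to 0.00558. The B1/P/Rbf genotype, at 18.5, 77.8, 43.0, 10.9 and 51.6 CPM, overlapped with both and was called apart from neither (adjusted p = 0.0834 against B1/P and 0.126 against P/Rbf tumors by edgeR, 0.0339 and 0.0147 by DESeq2). Without B1/P tumor 5 the first of these was called (edgeR adjusted p = 0.0458). Glands held 237, 125 and 231 CPM, near the B1/P tumors (log2 fold change -0.387, edgeR adjusted p = 0.743). Peg3 was 27.7-fold lower in P/Rbf tumors and 4.89-fold lower in B1/P/Rbf tumors than in glands (edgeR adjusted p = 0.000374 and 0.0336). The second call was lost without any 1 of the 3 glands or of B1/P/Rbf tumors 1, 3 and 4, with an adjusted p of 0.0509 to 0.0979, and also without TMM (0.0695) and with a term for 2 sets of libraries (0.13).

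Both neighbours of Peg3 were also called lower in P/Rbf than in B1/P tumors, Zim1 with overlap. Usp29 had no counts in 4 of 5 P/Rbf tumors and 0.228 CPM in tumor 3, which also had the highest Peg3 of that genotype. In B1/P tumors Usp29 was at 2.16, 0.918, 9.15, 10.0 and 0.284 CPM, and it was called lower in P/Rbf tumors (edgeR adjusted p = 0.00601). Over the 15 tumors Usp29 was the gene most like Peg3, with r = 0.907. Zim1, the next imprinted gene on the other side of Peg3 (chr7:6671269-6696450, minus strand) and itself read from the maternal copy, was called lower in P/Rbf than in B1/P tumors (log2 fold change -3.48 ± 1.03, adjusted p = 0.0265). B1/P tumors 1 to 5 had Zim1 at 3.97, 0.326, 0.478, 3.99 and 0.221 CPM. P/Rbf tumors had 0.0288, 0.473, 0.101, 0.184 and 0 CPM. Zim1 in tumors was at most 3.99 CPM, against 10.9 to 23.6 CPM in glands.

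Mest was high in the B1/P tumors and in a single B1/P/Rbf tumor. B1/P tumors 1 to 5 gave 183, 50.5, 80.1, 248 and 61.8 CPM, and P/Rbf tumors 7.28, 10.5, 10.6, 9.05 and 5.65 CPM, without overlap. The difference was 14.4-fold (log2 fold change -3.85 ± 0.865, edgeR adjusted p = 0.00636), and the call held without any 1 tumor (adjusted p of 0.00551 to 0.0181). In B1/P/Rbf tumors Mest gave 263, 15.3, 26.1, 11.9 and 7.50 CPM. Tumor 1 held the highest Mest of all 15 tumors and the others lay below every B1/P tumor, so that without tumor 1 Mest was called lower than in B1/P tumors (log2 fold change -3.04, edgeR adjusted p = 0.00161, against -0.946 and 0.432 with it), and limma-voom called it with all tumors (-1.98, adjusted p = 0.049). Glands had 3.13, 6.18 and 5.42 CPM, and Mest was 25.4-fold higher in B1/P tumors (edgeR adjusted p = 0.00442) and 13.2-fold higher in B1/P/Rbf tumors (log2 fold change 3.72, 0.0119; 0.0549 without gland 1, 0.0589 by limma-voom and 0.0556 with the library term). Without B1/P/Rbf tumor 1 the second of these log2 fold changes was 1.63, still called (edgeR adjusted p = 0.0279). P/Rbf tumors were not called (1.76-fold, adjusted p = 0.515). Between the T121 genotypes, leaving out each sample gave log2 fold changes of Mest from 0.817 to 3.2. The highest edgeR adjusted p there, 0.419, came without B1/P/Rbf tumor 1. The fibroblast marker sums were 2990, 1720 and 3130 CPM in the glands. They were 3200 to 3360 CPM in B1/P tumors 1, 4 and 5, whose Mest was 61.8 to 248 CPM. B1/P tumors 2 and 3 had sums of 13700 and 6820 CPM, with Mest at 50.5 and 80.1 CPM. B1/P/Rbf tumor 1 had the highest fibroblast sum of its genotype, 5280 CPM. P/Rbf tumors 2 and 3 had fibroblast sums of 4440 and 3300 CPM, with Mest at 10.5 and 10.6 CPM. Of the fibroblast markers, Pdgfra was at 53.7 to 181 CPM in B1/P tumors and 4.16 to 19.6 CPM in P/Rbf tumors. Pdgfrb was at 94.6 to 199 and 25.9 to 64.6 CPM, also without overlap. The other fibroblast markers overlapped between these genotypes, and the part of fibroblasts was not tested. Copg2, which overlaps Mest on the opposite strand, was not called between tumor genotypes.

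Plagl1 and Ndn were lower in P/Rbf than in B1/P tumors with overlap. B1/P tumors 1 to 5 had Plagl1 at 42.8, 7.73, 18.6, 55.5 and 19.6 CPM, and P/Rbf tumors at 14.5, 3.60, 9.04, 2.55 and 2.21 CPM, a 4.52-fold difference (log2 fold change -2.18 ± 0.626, edgeR adjusted p = 0.023). The call was lost without B1/P tumor 4 (adjusted p = 0.0599), P/Rbf tumor 4 (0.0508) or P/Rbf tumor 5 (0.0534), and with only these 2 groups in the fit (0.0615). The B1/P/Rbf genotype had 10.9, 2.75, 4.14, 16.5 and 9.90 CPM and was not called against B1/P tumors (adjusted p = 0.0667; DESeq2 0.0226; 0.0484 without B1/P/Rbf tumor 4 and 0.0338 without B1/P tumor 2). Glands, at 30.1, 17.6 and 26.5 CPM, were above all tumors of both T121 genotypes. Only the P/Rbf difference was called (-1.95 ± 0.680, edgeR adjusted p = 0.0316; 0.0530 to 0.100 without any 1 gland or P/Rbf tumor 2, 4 or 5, and 0.0547 without TMM), and the difference of B1/P/Rbf tumors had an adjusted p of 0.0955, or of 0.043 with these groups alone.

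Ndn was the member called in the most comparisons, 5 of 6. Glands held 18.4, 20.7 and 20.8 CPM, above every tumor. B1/P tumors 1 to 5 held 0.83, 5.75, 1.96, 13.0 and 2.62 CPM, B1/P/Rbf tumors 2.07, 0.54, 0.25, 0.56 and 0.42 CPM and P/Rbf tumors 0.43, 0.85, 1.32, 0.63 and 0.68 CPM. Ndn was 25.9-fold lower in B1/P/Rbf tumors and 25.4-fold lower in P/Rbf tumors than in glands (edgeR adjusted p = 0.000184 and 0.000186), and the first of these calls was lost with a term for 2 sets of libraries (log2 fold change -3.23, adjusted p = 0.0619). It was 4.13-fold lower in B1/P tumors (adjusted p = 0.0373), a call that was lost without any 1 gland or any 1 of B1/P tumors 1, 2, 3 and 5 (adjusted p of 0.0505 to 0.0913), without TMM (0.073), with the library term (0.288) and with these groups alone (0.054). The T121 genotypes lay 6.28-fold (B1/P/Rbf) and 6.15-fold (P/Rbf) below B1/P tumors (log2 fold changes -2.65 ± 0.683 and -2.62 ± 0.683, adjusted p = 0.0145 and 0.014), and from each other they were not called (log2 fold change -0.0285 ± 0.653, adjusted p = 0.996). Without B1/P tumor 4, the highest of its group, these log2 fold changes were -1.86 and -1.83 (adjusted p = 0.049 and 0.0483), and that of B1/P tumors against glands was -2.84. Without B1/P/Rbf tumor 1 they were -3.44 against B1/P tumors and -5.49 against glands. The B1/P/Rbf difference from B1/P tumors had an adjusted p of 0.0836 with a term for 2 sets of libraries and of 0.0581 in a fit of these groups alone, and the P/Rbf difference one of 0.111 by limma-voom.

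**Figure D4:**
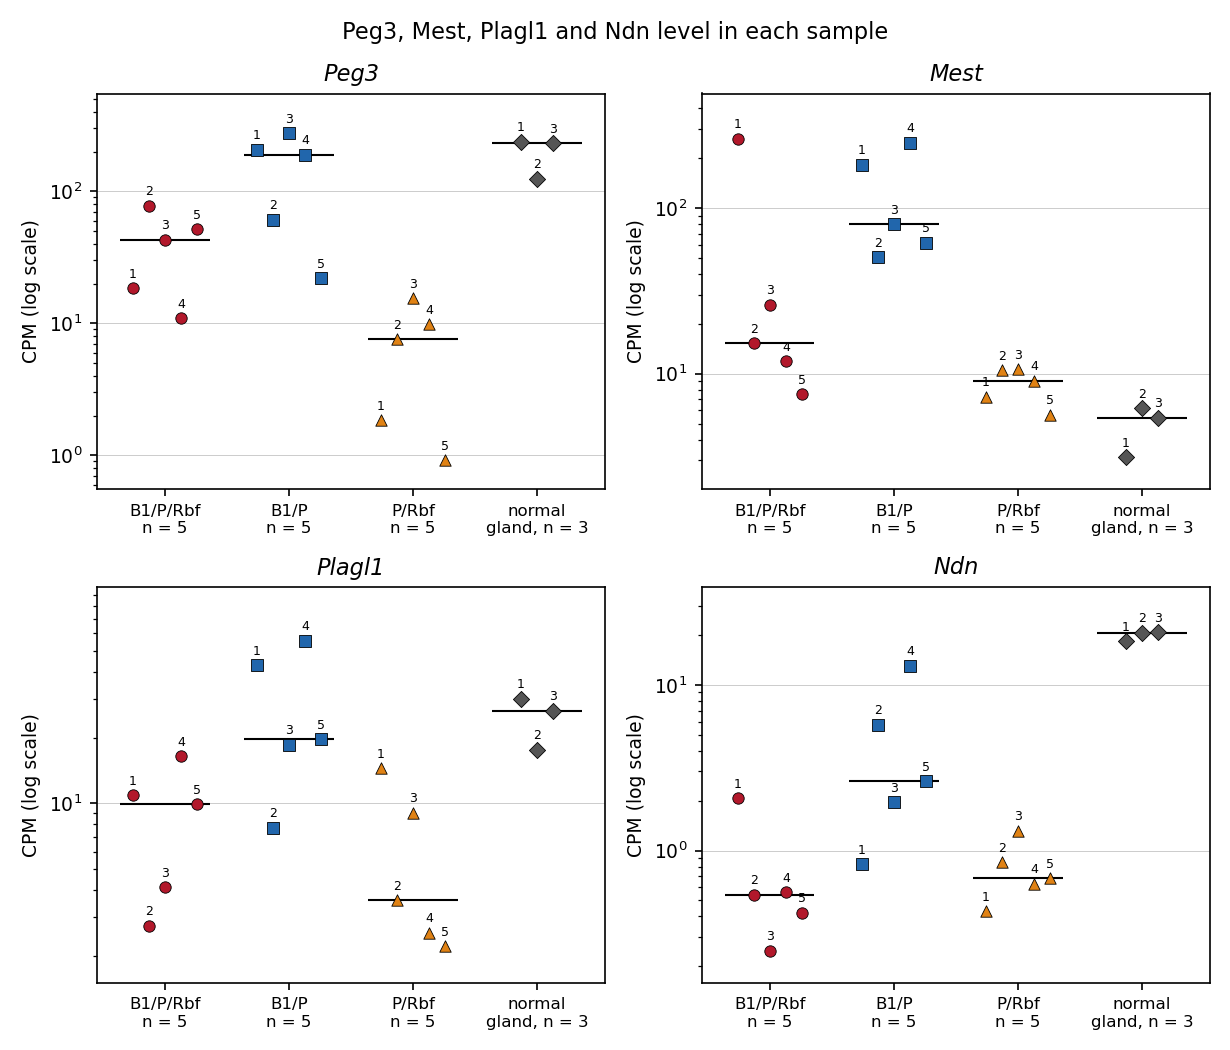
Peg3, Mest, Plagl1 and Ndn in each of the 18 samples, in CPM on log axes; numbers are replicates and lines are group medians. P/Rbf tumors lie below all B1/P tumors for Peg3 and Mest, and the 3 glands, at 18.4 to 20.8 CPM, lie above every tumor for Ndn.

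The epithelial, fibroblast, basal, mural and preadipocyte marker sums and the level of Sox10 given above move with the same genotypes, and their part in the levels of Peg3, Mest, Plagl1 and Ndn was not tested. By exact two-sided permutation tests on log2 CPM, Peg3 and Mest in P/Rbf against B1/P tumors each gave p = 0.00794, the smallest that 5 against 5 samples allow, and the smallest for 5 against 3 is 0.0357. Over the 60 such tests of members the lowest Benjamini-Hochberg value was 0.102, so none passes. Genes of related function were listed too: Plag1, Plagl2, E2f1, Maged1, Magel2, Dlk2 and Notch1, 6 of 7 tested. Of these, Dlk2 and Notch1, which belong with Dlk1 to 1 signalling family, were lower than in B1/P tumors in B1/P/Rbf (-6.68 and -2.51 on the log2 scale, edgeR adjusted p = 0.00271 and 0.00497) and in P/Rbf tumors (-6.57 and -1.76, adjusted p = 0.00302 and 0.0272), and the other 4 were called in neither. These 2 are 33.3% of the genes tested in each comparison, where 16.7% and 19.2% of all genes were called. Against the glands, this list had 2 genes called higher and 1 lower for B1/P/Rbf, 3 and 0 for B1/P and 2 and 0 for P/Rbf tumors, of 6 tested, beside the 37.0%, 33.8% and 37.7% of all genes called in these comparisons.

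Cdkn1c and Grb10 restrain growth. Cdkn1c (chr7:143458339-143461050, minus strand) encodes p57, an inhibitor of cyclin-dependent kinases read from the maternal copy. Tumors 1 to 5 of the B1/P/Rbf genotype had it at 10.2, 5.80, 25.0, 23.8 and 0.81 CPM. B1/P tumors had 0.22, 1.16, 1.31, 30.3 and 0.60 CPM, and P/Rbf tumors 10.4, 80.6, 0.76, 69.2 and 10.6 CPM. Each genotype therefore held tumors near or below 1 CPM and tumors above 20 CPM, while the glands stood together at 21.9, 25.1 and 27.7 CPM. Cdkn1c was called in none of the 6 comparisons, with an edgeR adjusted p of 0.192 to 0.816; at an unadjusted p none was under 0.05, and limma-voom called it lower in B1/P tumors than in glands (adjusted p = 0.0461). As for H19, B1/P tumor 4 decided this: without it, Cdkn1c was lower in B1/P tumors than in B1/P/Rbf tumors, P/Rbf tumors and glands, by 3.99, 5.37 and 4.91 on the log2 scale (edgeR adjusted p = 0.0297, 0.00858 and 0.007).

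The 6 other inhibitors of such kinases gave calls in 1 direction between genotypes. The epithelial, fibroblast, basal, mural and preadipocyte sums and Sox10 given above move with the same genotypes. This applies to every gene list compared between tumor genotypes, and their part was not tested. In B1/P/Rbf against B1/P tumors 2 of 6 were called higher and none lower, and in P/Rbf against B1/P tumors 4 of 6 were called higher, where 7.36% and 8.43% of all genes were called higher. Cdkn1a (p21) was 1.60 and 1.35 higher on the log2 scale and Cdkn2c (p18) 2.30 and 2.14 higher in these comparisons (edgeR adjusted p of 0.000528 to 0.00774), and Cdkn2a and Cdkn2d were 1.16 and 1.38 higher in P/Rbf tumors (adjusted p = 0.0139 and 0.0254). Cdkn2a, which encodes p16 and p19Arf, was at 48.8 to 371 CPM in all tumors and 0.43 to 0.491 CPM in glands. Against the glands, 3 of the 6 were higher and 0 lower for B1/P/Rbf, 2 and 1 for B1/P and 5 and 0 for P/Rbf tumors, where 37.0%, 33.8% and 37.7% of all genes were called in either direction.

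Grb10 (chr11:11930508-12038683, minus strand) encodes an adaptor that dampens signalling from the insulin and IGF receptors. P/Rbf tumors 1 to 5 had 204, 19.7, 40.5, 22.6 and 147 CPM. Grb10 in B1/P/Rbf tumors was at 32.7, 6.42, 7.25, 34.6 and 6.98 CPM, and in B1/P tumors at 18.6, 60.5, 21.7, 33.1 and 38.7 CPM. Tumors 2, 3 and 5 of the former were below all P/Rbf tumors, and the 4.94-fold lower fitted level was not called (log2 fold change -2.30 ± 0.678, edgeR adjusted p = 0.12; DESeq2 0.0137). Glands, at 85.0, 61.8 and 85.0 CPM, lay above all B1/P/Rbf and all B1/P tumors, and B1/P/Rbf tumors were called lower (4.39-fold, adjusted p = 0.0303). That call was lost without any 1 gland or any 1 of B1/P/Rbf tumors 2, 3 and 5 (adjusted p of 0.0549 to 0.0781), without TMM (0.0575) and with the term for 2 sets of libraries (0.27). The lower level in B1/P tumors was called only in a fit of these groups alone (log2 fold change -1.16, edgeR adjusted p = 0.0369).

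Dlk1 and Meg3 lie in 1 imprinted domain on chromosome 12 and are read from opposite parental copies. Dlk1 (chr12:109452823-109463336, plus strand) encodes a membrane protein of the Notch ligand family that keeps precursor cells, such as those of fat, from maturing. It had 3 to 97 counts per library. In B1/P/Rbf tumors it gave 0.82, 0.27, 0.39, 1.17 and 0.26 CPM, B1/P tumors 1.02, 0.12, 0.58, 2.87 and 1.89 CPM, P/Rbf tumors 0.86, 0.095, 0.84, 0.24 and 0.27 CPM and glands 0.74, 0.92 and 0.58 CPM. The groups overlapped throughout and Dlk1 was called in no comparison (edgeR adjusted p of 0.161 to 0.876). Its SD within the tumor genotypes was 1.22 on the log2 scale, and the part of the low counts was not tested.

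Meg3 (chr12:109541001-109571726, plus strand) is a long noncoding RNA read from the maternal copy and carries growth-restraining activity. P/Rbf tumors had 16.3, 29.9, 40.9, 23.1 and 20.2 CPM, and glands 42.4, 18.2 and 31.5 CPM. Meg3 in B1/P/Rbf tumors was at 50.4, 14.5, 13.7, 19.5 and 9.64 CPM. B1/P tumors ranged most, with 26.2, 147, 56.2, 12.2 and 7.44 CPM, and tumor 2, the highest, also had the highest fibroblast sum, 13700 CPM. Meg3 was called in none of the comparisons (edgeR adjusted p of 0.214 to 0.885), and none had an unadjusted p under 0.05. With a term for 2 sets of libraries it was called lower in B1/P/Rbf tumors than in B1/P tumors and glands (-1.83 and -3.47, adjusted p = 0.0391 and 0.0171). Rian, the next maternally read noncoding RNA of the domain (chr12:109603940-109661716, plus strand), was the gene most like Meg3 over the 15 tumors (r = 0.946), with 80.4 CPM in B1/P tumor 2 and at most 25.7 CPM in the other tumors. Dlk1 and Meg3 themselves did not run together (r = -0.377, permutation p = 0.166; rho = -0.35, permutation p = 0.202, over 15 tumors; within genotypes r = -0.484, permutation p = 0.16).

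**Figure D5:**
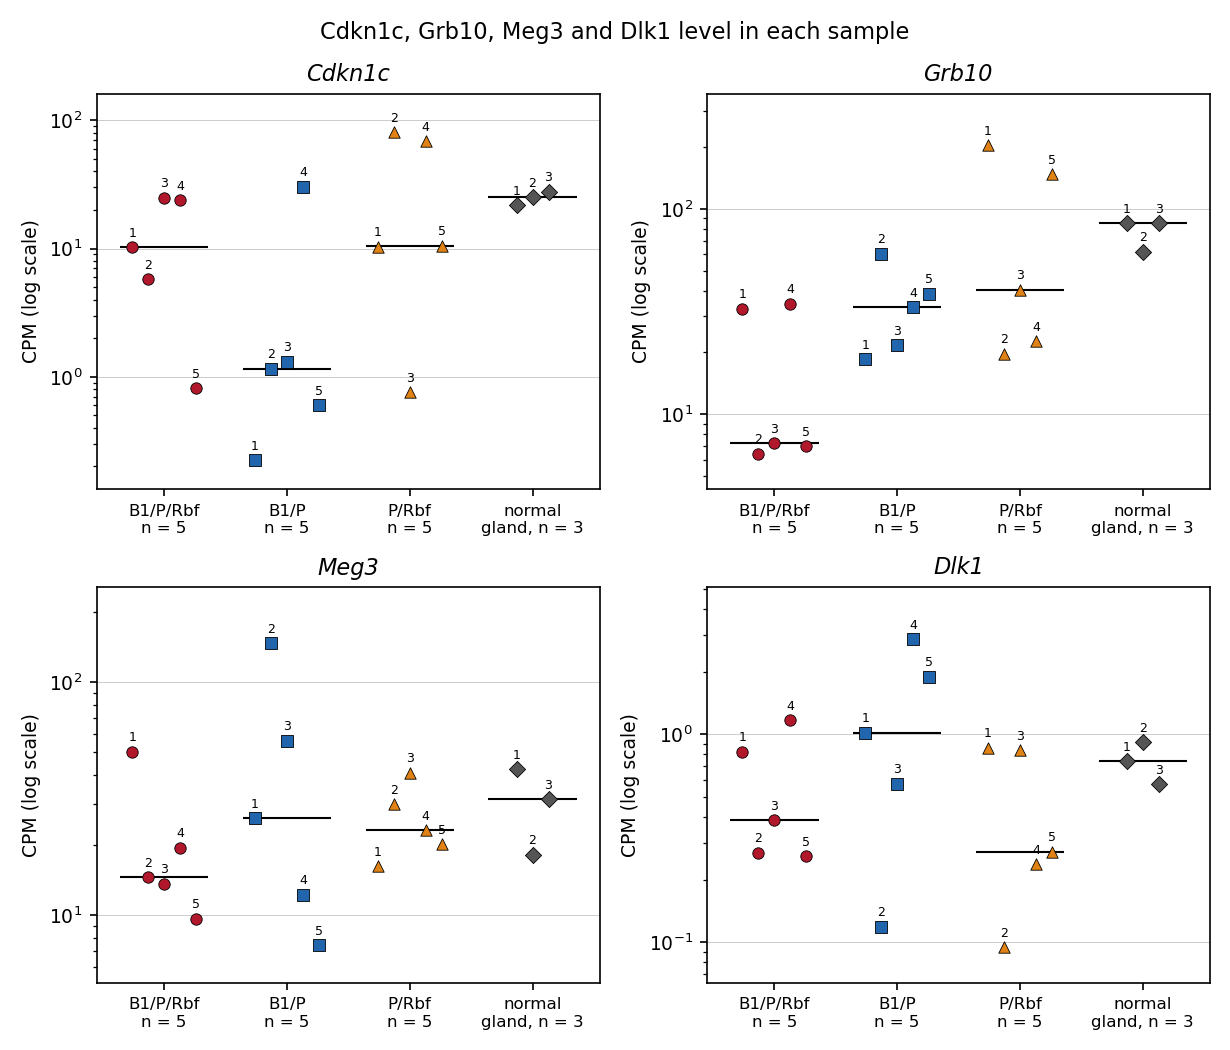
Cdkn1c, Grb10, Meg3 and Dlk1 in each of the 18 samples, in CPM on log axes; numbers are replicates and lines are group medians. Cdkn1c spans 0.22 to 80.6 CPM in tumors and 21.9 to 27.7 CPM in glands, and Dlk1 stays below 3 CPM in every sample.

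Other imprinted genes were read from a list of 61, of which 60 were in the table and 55 were tested. In P/Rbf against B1/P tumors 3 were called higher and 8 lower, and in B1/P/Rbf against B1/P tumors 4 were higher and 5 lower, with list medians of -0.724 and -0.51 on the log2 scale. The calls are 20.0% and 16.4% of the list, close to the 19.2% and 16.7% of all genes. Lower in both T121 genotypes than in B1/P tumors were Phactr2, Zrsr1 and Slc38a4. Higher in both were Blcap, the transporter gene Slc22a3 and Rasgrf1, a Ras activator read from the paternal copy. Slc38a4, with a median of 0.267 CPM in B1/P tumors, overlapped with both T121 genotypes. Slc22a3, at most 0.119 CPM in B1/P tumors, did so too. Rasgrf1 was at 994, 647, 117, 317 and 842 CPM in B1/P/Rbf tumors and at 0.0318, 0.0296, 0.377, 0.207 and 17.3 CPM in B1/P tumors, without overlap (log2 fold change 7.34 ± 1.71, edgeR adjusted p = 0.00824). Snurf and Mkrn3 lie in the same domain as Ndn. Both were lower in the B1/P/Rbf genotype than in B1/P (-3.74 and -1.95, edgeR adjusted p = 0.0238 and 0.0222). Snurf had at most 4.26 counts per library in B1/P/Rbf and 12.7 to 32.3 in B1/P tumors, and Mkrn3 overlapped. Tssc4, near Cdkn1c, was higher in the B1/P/Rbf genotype than in B1/P (0.899, edgeR adjusted p = 0.015). Begain, beside Dlk1, Gnas and Zdbf2 were lower in P/Rbf than in B1/P tumors (edgeR adjusted p = 0.00313, 0.0459 and 0.0196). Gnas and Zdbf2 overlapped between these genotypes. Zdbf2 was near the floor, with at most 1 count per library in P/Rbf tumors and 0 to 28 counts in B1/P tumors.

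Against the glands, calls among the 55 were 6 higher with 18 lower for B1/P/Rbf tumors, 3 and 14 in B1/P tumors and 4 and 17 in P/Rbf tumors, that is 43.6%, 30.9% and 38.2% of the list beside 37.0%, 33.8% and 37.7% of all genes. Nctc1, a noncoding RNA beyond H19 at the same domain, had 669 to 1241 counts in the glands and 0 in either T121 genotype, which makes it lower by at least 395-fold for B1/P/Rbf and at least 381-fold for P/Rbf tumors when set against 3 counts per library. Th, which lies beyond Igf2, had 21 to 65 counts in glands and 0 in both T121 genotypes, at least 14.9-fold and 14.4-fold lower. Slc22a3 was at 31.0 to 42.3 CPM in glands and at most 0.119 CPM in B1/P tumors. Nap1l5, read from the paternal copy, was at 3.11 to 4.60 CPM in glands and at most 0.0288 CPM, 1 count, in P/Rbf tumors, and was called lower there (edgeR adjusted p = 2.26e-05). The muscle, adipocyte, lymphocyte and mural sums of the glands move with these values, and their part was not tested.

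Of the genes that keep imprints, Dnmt1 and Uhrf1, which copy DNA methylation after replication, were called higher in all 3 tumor genotypes than in the glands. Of 15 listed, 14 were tested, of which 5 were called higher and 1 lower for B1/P/Rbf, 5 and 0 in B1/P and 4 and 2 in P/Rbf tumors, that is 42.9%, 35.7% and 42.9% of the list beside 37.0%, 33.8% and 37.7% of all genes. Against B1/P tumors, 1 was higher and 1 lower for B1/P/Rbf and 2 and 2 for P/Rbf tumors, 14.3% and 28.6% of the list beside 16.7% and 19.2%. Dnmt1 was 3.39, 2.10 and 2.72 higher on the log2 scale than in glands and also 1.29 (B1/P/Rbf) and 0.623 (P/Rbf) higher than in B1/P tumors (edgeR adjusted p = 0.000799 and 0.0362). Uhrf1 was 0.952 higher in P/Rbf than in B1/P tumors (adjusted p = 0.0431). Dnmt3l, a cofactor of new methylation in germ cells, was below 1 CPM in every tumor and lower in both T121 genotypes than in B1/P tumors (-2.93 and -2.81, adjusted p = 0.0162 and 0.018). Tet1, which oxidises methylated cytosine, was the only gene of the 5 lists that edgeR called between the T121 genotypes, with, in B1/P/Rbf against P/Rbf, 2.10, 17.3, 10.6, 3.65 and 22.2 CPM against 0.0288, 0.946, 0.202, 0.579 and 1.29 CPM, without overlap (log2 fold change 4.20 ± 0.812, edgeR adjusted p = 0.0376). P/Rbf tumors also had lower Tet1 than B1/P tumors (-5.15, adjusted p = 0.00108) and glands (-3.45, adjusted p = 0.00381).

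The genes most like each member were taken by Pearson r of log2 CPM over the 15 tumors, which share genotype groups and sequencing, among 15363 genes, as a description. For 3 members the first of them lay in the member's own imprinted domain, namely Igf2os for Igf2, Rian for Meg3 and Usp29 for Peg3. H19 was most like Cic (r = 0.894), Alkbh6 (0.874) and Plxnb1 (0.867). Mest was most like Slc2a3 (0.921), Cryzl2 (0.901) and Ccdc8 (0.893), and Ndn was most like Hoxc10 (0.913), Sulf1 (0.899) and Adamts5 (0.894). Plagl1 was led by Cnih2 (0.904), Ptprg (0.891) and Gtf2h3 (0.878), Cdkn1c by Ppp2r2d (0.845), Tmem41b (0.835) and Tcf24 (0.832), and Grb10 by Pik3r3 (0.856), Cpne2 (0.847) and Ube2l3 (0.821). The list for Dlk1 was Rplp2 (0.874), Cdk2ap1 (0.871) and Sdk2 (0.870), for Igf2 after Igf2os it was Atrip (0.867) and Ccdc155 (0.864), for Meg3 after Rian it was Dnm3os (0.894) and F630028O10Rik (0.875), and for Peg3 after Usp29 it was Copg1 (0.886) and Pfn2 (0.883). Among the members themselves, Mest had r of 0.675 with Peg3, 0.670 with Plagl1 and 0.674 with Ndn, Plagl1 had 0.795 with Dlk1, and Peg3 had -0.619 with Grb10.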

How the data were processed

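RNA of 15 mammary tumors and 3 normal glands was sequenced as paired-end stranded mRNA libraries, 1 per mouse. The deposited table holds expected counts per gene, which the authors estimated with RSEM 1.3.0; their processing notes also name FastQC 0.11.5, Picard 1.119, cutadapt 1.18 and DESeq2 1.28.1. Strand use in counting is not given in the sources used here. The methods name a human reference, but all 55450 gene IDs match GENCODE M21, whose GRCm38 coordinates are given. Of the values, 5.61% were not whole, and all were rounded.

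Genes were tested with edgeR 4.0.16 in R 4.3.3 (filterByExpr with a minimum count of 10, which kept 19186 genes; TMM; quasi-likelihood F-test; all 18 samples; group as the only term), and SE is the log2 fold change over the square root of F. The code was tested on simulated data. Replicates are separate mice. CPM are TMM-normalized, and log2 CPM use a prior count of 2. Alternatives were DESeq2 1.42.0, limma-voom (limma 3.58.1) with quantile normalization, no TMM, no filter, a stricter filter, the 2 groups alone, a term for 2 sets of libraries (numbered 1 to 8 and 9 to 18, bridged by B1/P tumors alone, which the labels do not call batches), and leaving out each sample. Summing Igf2 with Gm49394 was added after seeing the data. Permutation tests and correlations used scipy 1.17.1.

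The members and gene lists were chosen with earlier results of these data known. Named were the members, Brca1, Trp53, list genes called between tumor genotypes, the 3 called list genes with the largest change against glands, and the 3 genes most like each member with a mean of at least 1 CPM. Igf1, Igf2r, Copg2, Igf2os and Gm49394 were named after their values were seen, the last 3 for overlapping a member.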

Additional observations from a re-analysis of the deposited data

Results flagged for a closer look

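H19 in B1/P/Rbf tumor 1, at 193 CPM, lay far below the other 4 tumors of its genotype, with a gap to the nearest of 0.746 of the group's whole range on log2 CPM. H19 in B1/P tumor 4, at 1060 CPM, lay as far above its group, with a gap of 0.851 of the range. Dixon's critical value is 0.71 for 5 samples, 30 groups were tested, 2 samples were marked on this scale, and chance marks about 1 in 20 groups. The marks depend on the scale: on CPM, tried after seeing the data, 6 groups were marked, H19 and Cdkn1c by B1/P tumor 4, Mest, Meg3 and Ndn by B1/P/Rbf tumor 1 and Igf2 by P/Rbf tumor 1, while H19 in B1/P/Rbf tumor 1 was not.

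The difference of P/Rbf from B1/P tumors was itself tested, and passed, for Peg3 (log2 fold change -4.40), Mest (-3.85), Plagl1 (-2.18) and Ndn (-2.62), and Ndn also passed in B1/P/Rbf tumors against B1/P (-2.65). P/Rbf and B1/P tumors differ both in Brca1 and in T121, which cannot be told apart there, and the part of the marker sums that differ between the same tumors was not tested.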

How the results depend on the processing

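No paired analysis was possible because replicates were numbered in accession order and each sample is a separate mouse. The calls of Peg3 and Mest in P/Rbf against B1/P tumors held under every alternative that gave them a value. DESeq2 called 5 members in B1/P/Rbf against B1/P tumors and 3 between the T121 genotypes, where it called 23.0% and 5.29% of all genes, and limma-voom called 4 in the first of these, where it called 16.0%. Without TMM, 3 members were called in B1/P/Rbf tumors and 1 in B1/P tumors against glands (41.7% and 39.4% of all genes); this moved the median log2 fold change of all genes against glands from 0.0514 to 0.419 for B1/P/Rbf tumors. The stricter filter (a log2 CPM of 6 or more, reached in 6 samples) left 3 members and 4549 genes, with 0 called in B1/P/Rbf against B1/P (19.5% of those genes), 1 in P/Rbf against B1/P (19.1%), and against glands 2 for B1/P/Rbf (38.8%), 1 for P/Rbf (36.7%) and 0 for B1/P tumors (35.2%). With the term for 2 sets of libraries, 2 members were called in B1/P/Rbf against B1/P, with Ndn lost and H19 and Meg3 gained, as were 12.4% of all genes. Against glands it called 3 for B1/P/Rbf, with Peg3, Mest, Grb10 and Ndn lost and H19 and Meg3 gained, and 1 for B1/P, with Ndn lost, as it did 20.2% and 26.1% of all genes, against 37.0% and 33.8% without the term. With the 2 groups alone, 0 were called in B1/P/Rbf against B1/P, as were 12.3% of all genes. Leaving out each sample gave 1 to 3 members in B1/P/Rbf against B1/P (12.1% to 18.1% of all genes), 3 to 5 in P/Rbf against B1/P (14.4% to 20.5%), and against glands 1 to 4 in B1/P/Rbf (25.0% to 36.3%) and 1 to 4 in B1/P tumors (21.7% to 33.7%). Without B1/P/Rbf tumor 3, Ndn stayed the only call against B1/P, and against glands Peg3 (adjusted p = 0.0558) and Grb10 (0.0651) were lost. Centred within genotype, the r of H19 with Igf2 was 0.473. The causes were not tested.

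Signs changed for members that were not called, on the log2 scale. By limma-voom, against glands, these were Dlk1 in B1/P/Rbf (0.187) and P/Rbf (0.144), Igf2 in B1/P (-0.249), and Cdkn1c (-0.671) and Grb10 (-0.557) in P/Rbf. Without TMM they were Ndn between the T121 genotypes (0.0481), Igf2 in P/Rbf against B1/P (-0.0391; -0.0946 with the stricter filter) and Meg3 in P/Rbf against glands (0.056). With the library term they were Dlk1 in B1/P/Rbf against B1/P (0.029), Cdkn1c (2.72) and Ndn (1.43) between the T121 genotypes, H19 (-0.256), Igf2 (-0.57) and Meg3 (1.4) in P/Rbf against B1/P, Dlk1 (1.7) and Cdkn1c (3.18) in B1/P/Rbf against glands, and Meg3 in B1/P against glands (-1.64). Leaving out each sample gave, between the T121 genotypes, -0.819 to 0.242 for Ndn and -0.0865 to 0.658 for Dlk1. In P/Rbf against B1/P it gave -0.958 to 1.16 for Igf2 and -1.22 to 0.028 for Meg3. Against glands it gave -0.265 to 1.02 for Meg3 and -0.156 to 0.465 for Plagl1 in B1/P, and -0.337 to 0.424 for Grb10, -0.132 to 0.779 for Cdkn1c and -0.457 to 0.105 for Meg3 in P/Rbf. Dlk1 had 3 to 97 counts per library, and whether depth limits its calls was not tested.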
